A study of Homo sapiens with 30 samples.

Results

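RNA polymerase II carries on its largest subunit, RPB1 (encoded by POLR2A), a C-terminal domain (CTD) of repeated heptads that is phosphorylated as transcription proceeds. Serine 2 is phosphorylated during productive elongation, and factors for elongation, splicing and 3' end formation bind the modified tail. Threonine 4 phosphorylation has been linked to transcription termination and, in chicken cells, to 3' end formation of histone mRNAs. The comparison described here asks how the change of gene expression after RPB1 replacement by a threonine 4 to valine CTD mutant (T4V) differed from that after replacement by a serine 2 to alanine mutant (S2A). It was the difference of changes, (T4V treated minus T4V untreated) minus (S2A treated minus S2A untreated), and it used 8 of the 30 poly(A) RNA-seq libraries of the series, 2 in each of 4 groups.

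The treated T4V group had the genotype RPB1 degron with a T4V RPB1 complement and received 2 µg/mL doxycycline for 24 h, which induces the mutant RPB1, followed by 100 nM dTAGV-1 for 12 h, which degrades the endogenous RPB1. The untreated T4V group was the same line without either agent. The treated S2A group had the RPB1 degron with an S2A RPB1 complement and received the same 2 agents at the same doses and times, and the untreated S2A group received neither. All 4 groups carried the degron, so each change combines induction of the mutant, loss of the endogenous protein and exposure to both agents, and these cannot be told apart within a line. The labels do not say whether a line is 1 clone or whether the 2 libraries of a group came from separate cultures; p-values measure only the spread between libraries, which may be technical. The 8 libraries held 10866089 to 15950073 counts.

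Some features of the libraries bear on all the values that follow. The libraries are labelled A549, a lung adenocarcinoma line, but 13 of 22 A549 and lung epithelial markers stayed under 1 CPM (counts scaled to a common library total after TMM adjustment of the totals) in all 8 libraries, KRT19 and KRT81 were at 0 in each, and AKR1B10, SFTPC and KRT7 stood at no more than 0.0967 CPM. Other lung markers were present at low levels, FOXA1 at 3.65 to 6.48 and NKX2-1 at 1.20 to 8.22 CPM. CDKN2A, which is deleted in A549, stood at 105 to 156 CPM, and IRS4, a gene typical of HEK293 cells, at 153 to 939.5 CPM. Of the 12 HEK293, kidney or neuronal markers, 2 (PAX8 and STMN2) stayed under 1 CPM in all 8 libraries. NEFH and PAX2 were low too, at 0.990 to 1.63 and 0.594 to 3.75 CPM. The summed A549 marker level was 180.4 to 189 CPM in treated and 118 to 152 CPM in untreated T4V libraries, and 95.2 to 107 CPM in treated and 84.9 to 93.3 CPM in untreated S2A libraries, most of it KRT8 and KRT18. The summed level of 12 HEK293, kidney or neuronal markers was 472 to 483 CPM in treated and 1143 to 1321 CPM in untreated T4V libraries, and 514 to 529 CPM in treated and 1327 to 1339 CPM in untreated S2A libraries. The part of these markers in the results was not tested. The 2 untreated T4V libraries stood apart from each other: the chi-square of their counts per degree of freedom was 24.72, the highest of the 15 groups, against 1.6 for treated T4V, 3.23 for treated S2A and 1.26 for untreated S2A. Their difference ran along GC content, so that the median T4V change of the genes in the highest of 5 equal bins of transcript GC content was -0.36 to 0.13 log2 over the 4 pairings of a treated with an untreated library, while for S2A it was -0.10 to 0.07. In bulk RNA, fewer cells of a kind and less RNA per cell cannot be told apart.

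Most genes that changed in both lines moved the same way, and 292 genes were called in the difference between the lines. Of 19982 genes tested with edgeR's quasi-likelihood test (calls at an adjusted p under 0.05, Benjamini-Hochberg), 5766 (28.9%) changed in T4V, 2959 up (14.8%) and 2807 down (14%), and 7015 (35.1%) changed in S2A, 3387 up (17%) and 3628 down (18.2%). Both lines rose in 1937 genes and both fell in 1986, whereas 14 genes rose in T4V and fell in S2A and 12 did the reverse. Across the 11324 genes averaging 5 CPM or more, the changes of the 2 lines had a Pearson r of 0.80, a description over genes that share libraries, and an SD of 0.49 log2 in T4V and 0.55 in S2A. The difference itself was called for 292 genes (1.46%), 184 higher in T4V minus S2A (0.921%) and 108 lower (0.540%).

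**Figure D1:**
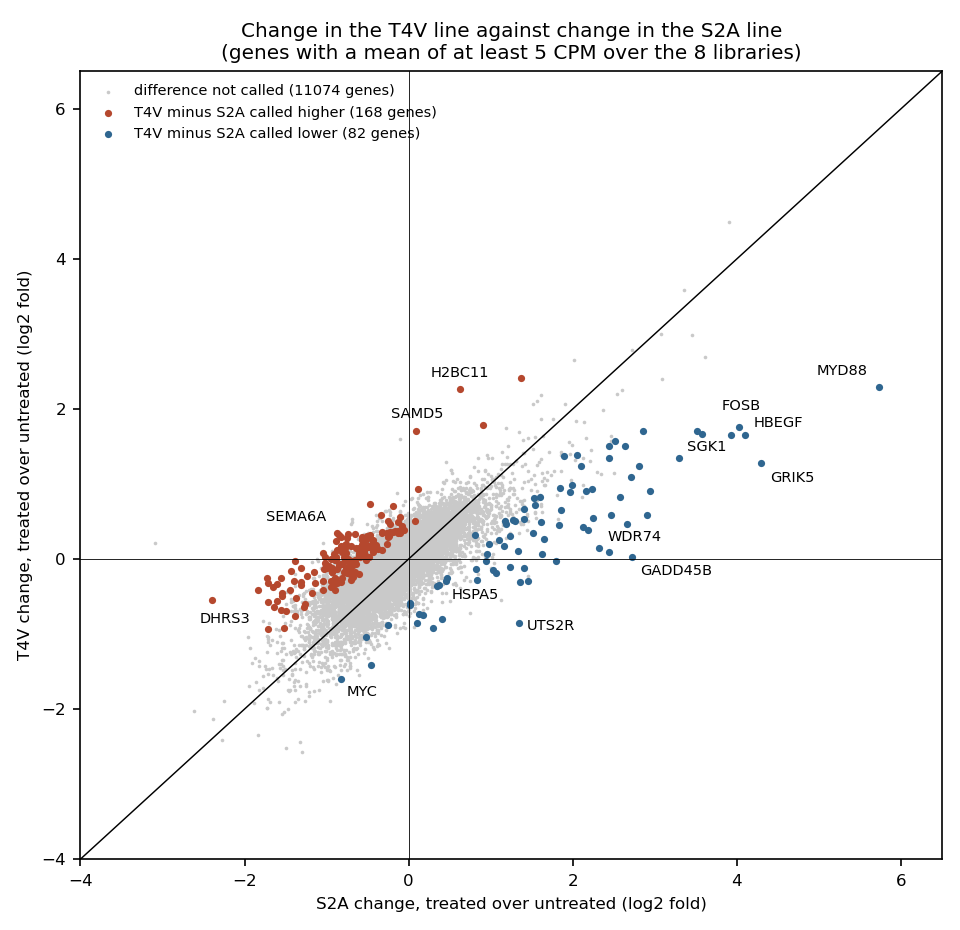
Each point is 1 of 11324 genes averaging 5 CPM or more; the y axis is the T4V change and the x axis the S2A change (treated over untreated, log2 fold), and the diagonal marks equal change. The 82 genes called lower in T4V minus S2A lie mostly to the right, where S2A rose more, and the 168 called higher lie mostly on the left, where S2A fell more.

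The genes called higher were mainly genes that fell in S2A. Of the 184, 109 fell in S2A and were not called in T4V, 31 fell in both, 28 rose in T4V and were not called in S2A, 13 rose in T4V and fell in S2A, and 3 rose in both. The genes called lower were mainly genes that rose in S2A: of the 108, 43 rose in both lines, 41 rose in S2A and were not called in T4V, 12 fell in T4V and rose in S2A, 8 fell in T4V and were not called in S2A and 4 fell in both. The starting levels differed too, since 5032 genes (25.2%) were called between untreated T4V and untreated S2A. Of the genes called higher in the difference, 76 differed between the treated groups (T4V higher) and not between the untreated ones. Another 56 were higher in T4V both untreated and treated, and 3 were lower in both. A further 31 differed between the untreated groups (T4V lower) and not the treated ones, and 18 were lower in untreated and higher in treated T4V. Of the genes called lower, 43 were called between the treated groups (T4V lower) and not the untreated ones. Another 28 were called between the untreated groups (T4V higher) and not the treated ones, and 21 were higher in untreated and lower in treated T4V. T4V was lower both untreated and treated in 12, and higher in both in 4.

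The number of calls depended on single libraries and on the scaling. Leaving out untreated T4V replicate 2 gave 168 higher and 123 lower, whereas leaving out untreated T4V replicate 1 gave 43 and 69, treated T4V replicates 1 and 2 gave 35 and 60, and 48 and 61, treated S2A replicates 1 and 2 gave 33 and 59, and 44 and 69, and untreated S2A replicates 1 and 2 gave 50 and 54, and 32 and 56. DESeq2 size factors gave 110 higher and 127 lower and scaling by 13 mitochondrial mRNAs 16 and 70, so the balance of directions moved with the scaling. The authors' factors, a setting that also left out the Mock libraries, gave 7 and 42, and the 8 libraries alone, scaled by TMM as well, gave 6 and 30. Within the lines the balance moved further: mitochondrial scaling gave 831 up and 9645 down in T4V and 1480 up and 9209 down in S2A, and the authors' factors 881 up and 6623 down in T4V and 1375 up and 8649 down in S2A. A set of 19 higher and 40 lower genes was called in every fit without 1 library, and 4 and 16 of these under all 10 other settings as well.

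The largest differences among the named genes belonged to genes that rose more in S2A than in T4V. MYD88, the adaptor of Toll-like and interleukin-1 receptors (chr3:38138478-38143022 on hg38), had 3.38 and 3.02 CPM in treated and 0.762 and 0.509 CPM in untreated T4V libraries. In S2A, MYD88 had 35.2 and 35.3 CPM in treated and 0.707 and 0.601 CPM in untreated S2A libraries. The treated S2A libraries were thus far above all 6 others, and MYD88 rose by 2.29 ± 0.33 log2 (SE) in T4V and by 5.73 ± 0.26 in S2A, a difference of -3.44 ± 0.52 (adjusted p = 0.00092, edgeR; -3.15 and 0.057 without untreated T4V replicate 1; the untreated T4V libraries held 12 and 7 counts). GADD45B, a stress-induced regulator of p38 signalling (chr19:2476122-2478259), had 13.2 and 12.5 CPM in treated and 14.5 and 10.4 CPM in untreated T4V libraries. In S2A, GADD45B had 88.2 and 80.4 CPM in treated and 13.3 and 12.4 CPM in untreated S2A libraries. Only the treated S2A libraries stood out, the other 6 overlapping, and the difference was -2.68 ± 0.29 log2 (adjusted p = 3.3e-05, edgeR).

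HBEGF, a ligand of the EGF receptor (chr5:140332843-140346631), had 18.1 and 18 CPM in treated and 5.91 and 5.52 CPM in untreated T4V libraries. In S2A, HBEGF had 50.5 and 49.5 CPM in treated and 2.33 and 3.47 CPM in untreated S2A libraries. It rose in both lines, by 1.65 ± 0.17 log2 in T4V and 4.10 ± 0.18 in S2A, with a difference of -2.44 ± 0.25 (adjusted p = 2.3e-05, edgeR). SNAI1, a repressor of E-cadherin, also rose in both (1.65 and 3.93 log2; difference -2.28 ± 0.37, adjusted p = 0.0021, edgeR; 0.053 with the 8 libraries alone), and so did TENT5C, a non-canonical poly(A) polymerase (1.66 and 3.58 log2; difference -1.92 ± 0.24). GRIK5, a kainate receptor subunit, had 3.29 and 1.78 CPM in treated and 1.02 and 1.02 CPM in untreated T4V libraries. In S2A, GRIK5 had 33.9 and 27.2 CPM in treated and 1.63 and 1.47 CPM in untreated S2A libraries; the gene overlaps ZNF574, and whether counting used strand is not stated in the labels. NPTX2, a secreted neuronal pentraxin, had 13.2 and 12.8 CPM in treated and 10.8 and 6.47 CPM in untreated T4V libraries. In S2A, NPTX2 had 49.5 and 47.4 CPM in treated and 6.36 and 6.48 CPM in untreated S2A libraries. NPTX2 stood at 0.58 log2 in T4V (adjusted p = 0.077, edgeR) and rose by 2.91 in S2A, and its difference of -2.34 ± 0.34 passed as well.

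PHLDA2, an imprinted growth-restraining gene, and SHISA2 and WDR74 followed the same direction, with differences of -2.34 ± 0.42, -1.88 ± 0.21 and -2.17 ± 0.22 log2. WDR74, a ribosome biogenesis factor, had 60.2 and 58.8 CPM in treated and 62.5 and 45 CPM in untreated T4V libraries. In S2A, WDR74 had 324 and 292 CPM in treated and 63.9 and 59.6 CPM in untreated S2A libraries. Its annotated span overlaps the U2 snRNA copy RNU2-2P and STX5-DT, so the reads cannot be assigned to WDR74 alone. UTS2R, the urotensin 2 receptor, fell in T4V (17.3 and 18.8 CPM treated, 40.2 and 25.5 CPM untreated) and rose in S2A (6.52 and 4.24 CPM treated, 2.05 and 2.20 CPM untreated); its difference of -2.20 ± 0.41 had an adjusted p of 0.0063 (edgeR), and 0.07 without treated S2A replicate 1.

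**Figure D2:**
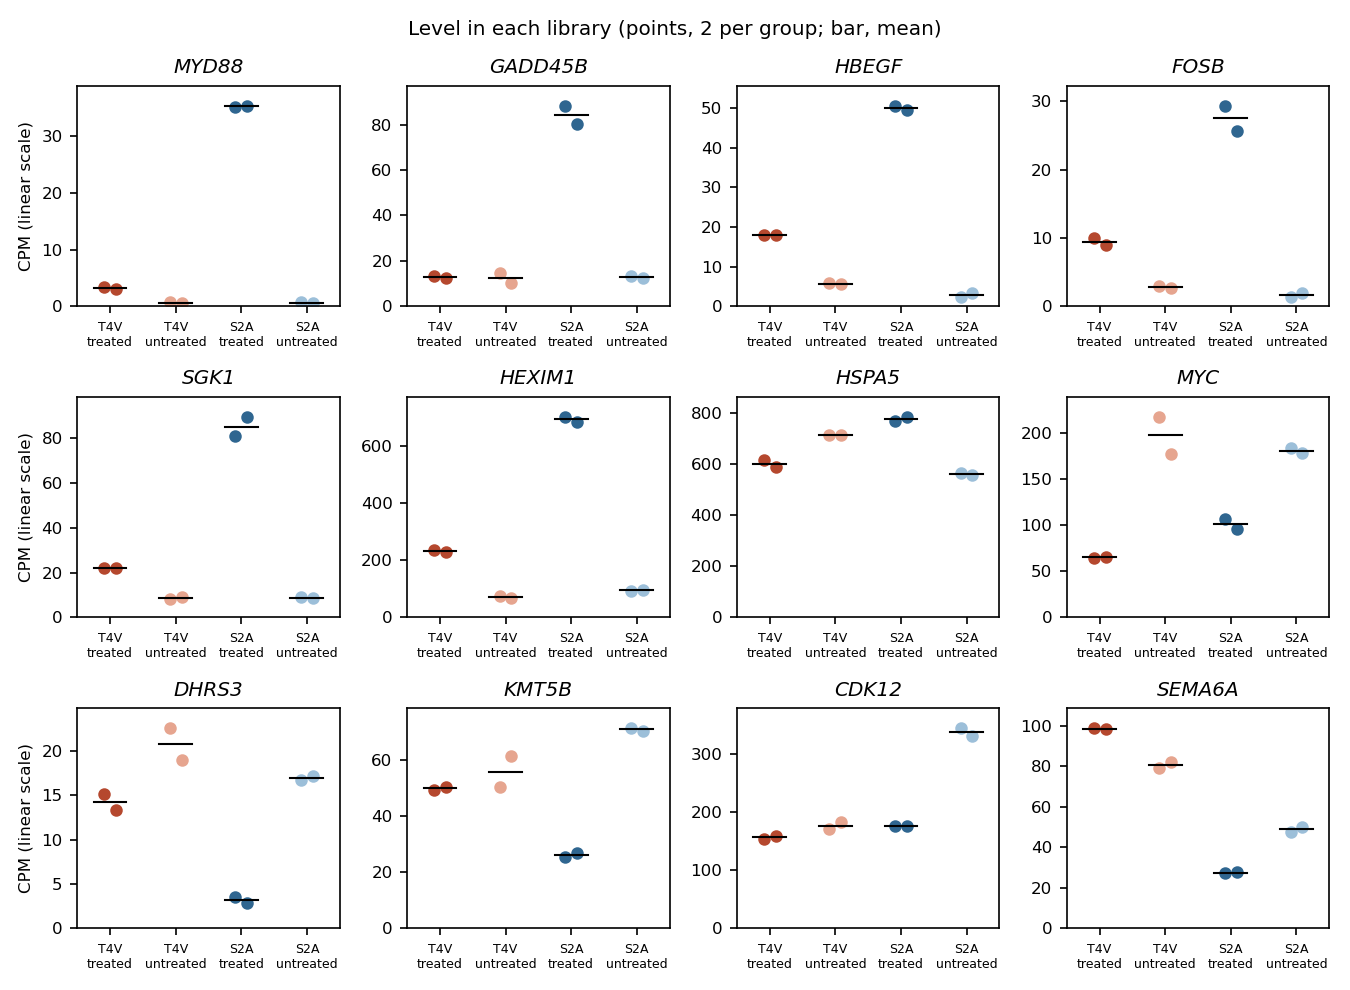
CPM (y axis, linear, from 0) of 12 genes in each library, treated T4V, untreated T4V, treated S2A and untreated S2A from left to right; points are the 2 libraries of a group and bars their mean. MYD88, GADD45B, HBEGF, FOSB, SGK1 and HEXIM1 are highest in treated S2A; DHRS3 and KMT5B are lowest there.

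Promoter windows of 4 of these genes are shown because TATAAA was more frequent among the genes called lower than over all promoters, which is a description with no test. The windows are the 120 bases before the RefSeq transcription start (GRCh38.p14), 5' to 3' along the gene, in lower case with TATAAA in capitals. FOSB lies at chr19:45467876-45467995 (+), GADD45B at chr19:2476007-2476126 (+), HBEGF at chr5:140346604-140346723 (-) and KMT5B, a gene called higher, at chr11:68213649-68213768 (-).
FOSB: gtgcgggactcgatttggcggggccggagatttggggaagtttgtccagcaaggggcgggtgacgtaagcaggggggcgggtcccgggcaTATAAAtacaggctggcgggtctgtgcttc
GADD45B: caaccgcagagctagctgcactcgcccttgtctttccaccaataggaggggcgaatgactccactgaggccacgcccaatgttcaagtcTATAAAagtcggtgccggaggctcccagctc
HBEGF: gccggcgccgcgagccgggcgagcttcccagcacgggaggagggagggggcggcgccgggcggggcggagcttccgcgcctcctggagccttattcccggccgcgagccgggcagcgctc
KMT5B: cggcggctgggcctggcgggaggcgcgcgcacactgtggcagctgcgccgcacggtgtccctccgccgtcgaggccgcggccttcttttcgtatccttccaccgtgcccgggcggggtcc

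FOSB and GADD45B hold TATAAA close before the start, and HBEGF and KMT5B hold none in these windows. Over windows of 250 bases before to 50 after the start, on either strand, TATAAA was found in 16 of the 81 genes called lower that had a RefSeq promoter (19.8%), in 15 of 146 called higher (10.3%) and in 839 of all 13203 matched genes (6.35%). CCAAT was found in 49.4% of the genes called lower, 39% of those called higher and 36% of all. TGANTCA, the AP-1 consensus, was found in 3.7%, 6.85% and 4.81%, TGACGTCA, the cAMP response element, in 3.7%, 2.05% and 3.11%, and GGGCGG, the SP1 motif, in 71.6%, 69.9% and 67.1%. These motifs can overlap in a promoter, and a match is a description of letters only.

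Immediate early and other short-lived mRNAs, which encode transcription factors, phosphatases and mRNA decay factors made at once after a stimulus, leaned the same way. Of 44 tested, 10 were called lower in T4V minus S2A, against 0.540% of all genes, and 1 higher, against 0.921%; their median difference was -0.67 log2, against 0.03 over all genes tested. In 24 of the 44 all 4 T4V pairings lay below all 4 S2A pairings, which was the case for 11.8% of all genes, and in 4 all T4V pairings lay above, against 17% of all genes. Within the lines, 12 of the 44 rose and 4 fell in T4V (median 0.20 log2), where 14.8% of all genes rose and 14% fell. In S2A 22 rose and 5 fell (median 0.73), where 17% of all genes rose and 18.2% fell. Leaving out 1 library put the median difference between -0.46 (without untreated T4V replicate 1) and -0.70. The number called lower was 10 without untreated T4V replicate 2, 8 without treated S2A replicate 2, 5 without untreated S2A replicate 2 and 6 in the other 5 fits. It was 4 with the authors' factors, 4 with the 8 libraries alone and 5 with the replicate block, a setting that also left out the Mock libraries. The number was 6 when scaled by mitochondrial mRNAs and 20 with GC correction, where the median was -0.61. GC correction called 779 of all 19982 genes lower, against 108 in the main fit.

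Among their transcription factors, FOSB, an AP-1 subunit (chr19:45467995-45475179), had 9.96 and 8.91 CPM in treated and 2.92 and 2.62 CPM in untreated T4V libraries. In S2A, FOSB had 29.3 and 25.7 CPM in treated and 1.41 and 1.94 CPM in untreated S2A libraries. FOSB was highest in the treated S2A libraries and rose in both lines, by 1.76 ± 0.19 log2 in T4V and 4.02 ± 0.19 in S2A (difference -2.27 ± 0.28, adjusted p = 0.00015, edgeR). Part of its span overlaps ERCC1. KLF4, a zinc finger factor, had 6.96 and 8.22 CPM in treated and 4.45 and 4.14 CPM in untreated T4V libraries. In S2A, KLF4 had 25.8 and 27.2 CPM in treated and 4.67 and 4.28 CPM in untreated S2A libraries (difference -1.74 ± 0.24, adjusted p = 0.00029, edgeR). ATF3, a stress-induced repressor, rose in both lines, by 2.10 log2 in S2A, with a difference of -0.86. FOS, JUNB and EGR1 had differences of -1.57, -0.80 and -0.67 log2, each rising in S2A and none of them called in the difference (adjusted p = 0.093, 0.42 and 0.37, edgeR), and JUN stayed at -0.02.

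Of the signalling and decay genes in that group, SGK1, a kinase induced by serum and glucocorticoids (chr6:134169246-134318112), had 21.9 and 22.0 CPM in treated and 8.26 and 9.01 CPM in untreated T4V libraries. In S2A, SGK1 had 80.9 and 89.5 CPM in treated and 8.91 and 8.49 CPM in untreated S2A libraries. Untreated levels overlapped between the lines, and the difference of -1.95 ± 0.17 log2 had the smallest adjusted p among the named genes (1.9e-06, edgeR; at most 9.7e-05 without 1 library). IER3, an immediate early gene that limits apoptosis, had 4.93 and 5.43 CPM in treated and 3.43 and 4.14 CPM in untreated T4V libraries. In S2A, IER3 had 27.2 and 24.0 CPM in treated and 3.61 and 4.48 CPM in untreated S2A libraries (difference -2.20 ± 0.24, adjusted p = 3.4e-05, edgeR). IER2, IER5 and TOB1, the last a recruiter of the deadenylase, were called as well (differences -1.18, -1.25 and -0.72). These 3 and ATF3 lost their calls without untreated S2A replicate 2, where the 5 members still called lower were FOSB, IER3, SGK1, KLF4 and ID2. KLF6, a zinc finger factor, was the member called higher: it stood at 0.08 log2 in T4V (adjusted p of 0.61, edgeR) and fell by 0.76 in S2A. No member was called higher without treated S2A replicate 2, untreated T4V replicate 1 or treated T4V replicate 1, nor with the authors' factors, the 8 libraries alone, the replicate block or mitochondrial scaling, so the KLF6 call was lost in each.

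MYC was the one called member that fell in both lines. It had 64.2 and 65.5 CPM in treated and 217 and 177 CPM in untreated T4V libraries, against 107 and 95.9 CPM in treated and 183 and 178 CPM in untreated S2A libraries. Both treated pairs lay below both untreated pairs, the T4V pair furthest. MYC fell by 1.60 log2 in T4V and by 0.83 in S2A, a difference of -0.78 ± 0.19 (adjusted p = 0.036, edgeR); the call was lost in 6 of the 8 fits without 1 library (-0.67 to -0.92, adjusted p up to 0.16), all but those without treated S2A replicate 2 or untreated T4V replicate 2, and with the authors' factors (0.56), mitochondrial scaling (0.19), the 8 libraries alone (0.14) and the replicate block (0.14). It was the only call among 13 genes of the MYC network, whose median difference was -0.03 (0.13 without untreated T4V replicate 1 and -0.11 without replicate 2). Of all genes tested, 0.540% were called lower in the difference.

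**Figure D3:**
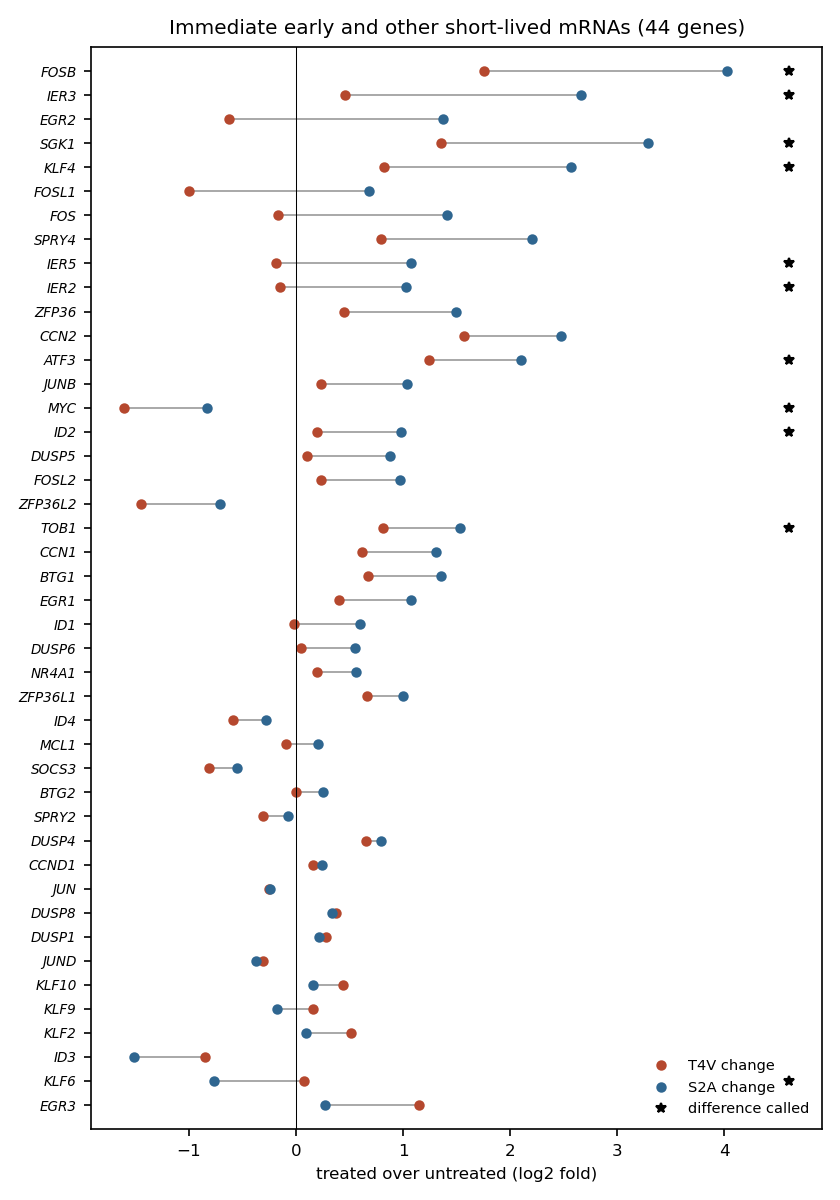
The 44 immediate early and other short-lived mRNAs, 1 per row, with the T4V change and the S2A change (treated over untreated, log2 fold, x axis) joined by a line; a star marks a called difference. For FOSB, IER3, SGK1 and KLF4 the T4V point lies 1.74 to 2.27 log2 left of the S2A point, and KLF6 is the starred gene that lies the other way.

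Genes of the CTD phosphorylation cycle held single calls per list in the difference, where 0.921% of all genes were called higher and 0.540% lower. Within the lines, 2 of 14 CTD kinases and cyclins rose and 1 fell in each, and of 12 CTD phosphatases and associated proteins 2 rose and 3 fell in T4V, and 1 rose and 4 fell in S2A. Of 31 elongation factors 9 rose and 2 fell in T4V, and 10 rose and 2 fell in S2A. Over all genes tested, 14.8% rose and 14% fell in T4V, and 17% rose and 18.2% fell in S2A. CDK12, a serine 2 kinase of the CTD that promotes elongation through long genes (chr17:39461511-39564907), had 154 and 159 CPM in treated and 171 and 182 CPM in untreated T4V libraries. In S2A, CDK12 had 175 and 176 CPM in treated and 344 and 331 CPM in untreated S2A libraries. The untreated S2A libraries were the high ones, and CDK12 stood at -0.18 ± 0.08 log2 in T4V (adjusted p of 0.083, edgeR) and fell by 0.94 ± 0.08 in S2A, a difference of 0.76 ± 0.11 (adjusted p = 0.00037, edgeR). The difference missed the threshold with the authors' factors (0.31), with mitochondrial scaling and with the 8 libraries alone. CDK12 was the only call among 14 CTD kinases and cyclins (median difference 0.15, but -0.04 without untreated T4V replicate 1 and 0.30 without replicate 2), and 11 other RNA polymerase II subunits gave none. CTDSP2 was the only call among 12 CTD phosphatases and associated proteins (0.60 log2, adjusted p = 0.031, edgeR; called in 1 of the 8 fits without 1 library, adjusted p up to 0.16). HEXIM1, which with 7SK RNA inhibits the kinase P-TEFb (chr17:45148502-45152101), had 234 and 227 CPM in treated and 74.8 and 66.4 CPM in untreated T4V libraries. In S2A, HEXIM1 had 700.1 and 684 CPM in treated and 92.8 and 97.2 CPM in untreated S2A libraries. Its span overlaps HEXIM2-AS1, and whether counting used strand is not stated in the labels. HEXIM1 rose by 1.71 ± 0.11 log2 in T4V and 2.86 ± 0.11 in S2A (difference -1.16 ± 0.15, adjusted p = 0.00022, edgeR; 0.079 with the authors' factors), and was the only call among 31 elongation factors. Of 26 cleavage, polyadenylation and termination factors none was called (median difference 0.14, but 0.04 without untreated T4V replicate 1 and 0.06 without treated S2A replicate 1), and of 15 Integrator subunits INTS2 alone was called (-0.99 log2, adjusted p = 0.015, edgeR; called in 1 of the 8 fits without 1 library, adjusted p up to 0.11).

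POLR2A itself had 517 and 535 CPM in treated and 434 and 278 CPM in untreated T4V libraries. In S2A, POLR2A had 679.7 and 598 CPM in treated and 295 and 296 CPM in untreated S2A libraries. The treated libraries were above the untreated ones in each line, and the untreated T4V libraries spread widely. POLR2A stood at 0.56 ± 0.26 log2 in T4V (adjusted p = 0.11, edgeR) and rose by 1.11 ± 0.26 in S2A, and the difference was -0.55 ± 0.37 (adjusted p = 0.61, edgeR). Whether reads of the induced copy were counted at this gene is not given in the sources used here.

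Genes called higher in T4V minus S2A had mostly fallen in S2A and were held closer to their untreated level in T4V. DHRS3, which reduces retinaldehyde in retinoid metabolism (chr1:12567910-12617731), had 15.2 and 13.3 CPM in treated and 22.6 and 19 CPM in untreated T4V libraries. In S2A, DHRS3 had 3.51 and 2.88 CPM in treated and 16.7 and 17.2 CPM in untreated S2A libraries. It fell in both lines, with changes of -0.55 ± 0.16 log2 in T4V and -2.40 ± 0.19 in S2A (difference 1.85 ± 0.25, adjusted p = 0.00029, edgeR). KMT5B, a histone H4 lysine 20 methyltransferase (chr11:68154863-68213828), had 49.6 and 50.4 CPM in treated and 50.4 and 61.5 CPM in untreated T4V libraries. In S2A, KMT5B had 25.5 and 26.8 CPM in treated and 71.6 and 70.6 CPM in untreated S2A libraries. Its T4V groups touched while the S2A groups were far apart, and the difference was 1.28 ± 0.18 log2 (adjusted p = 0.00035, edgeR). MAP2K6, a kinase that activates p38, had 32.7 and 32.2 CPM in treated and 33.8 and 43.3 CPM in untreated T4V libraries. In S2A, MAP2K6 had 18.8 and 21 CPM in treated and 58.8 and 58.7 CPM in untreated S2A libraries (difference 1.31 ± 0.22, adjusted p = 0.0024, edgeR).

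ADAMTS9, a secreted metalloprotease, had 9.38 and 9.84 CPM in treated and 14.2 and 10.1 CPM in untreated T4V libraries. In S2A, ADAMTS9 had 5.38 and 5.26 CPM in treated and 14.4 and 18.2 CPM in untreated S2A libraries (difference 1.28 ± 0.21; adjusted p = 0.0027, edgeR, and 0.14 with the 8 libraries alone). TGFBR2, a TGF-beta receptor, had 12.1 and 12.7 CPM in treated and 8.70 and 10.8 CPM in untreated T4V libraries. In S2A, TGFBR2 had 7.09 and 10.2 CPM in treated and 16.1 and 15.6 CPM in untreated S2A libraries (difference 1.23 ± 0.21; adjusted p = 0.0034, edgeR, and 0.057 without treated S2A replicate 1, 0.13 at most under the other settings). SEMA6A, a membrane semaphorin (chr5:116443616-116574934), moved in opposite directions: it had 98.8 and 98.1 CPM in treated and 78.9 and 81.9 CPM in untreated T4V libraries, against 27.4 and 27.6 CPM in treated and 47.4 and 50.1 CPM in untreated S2A libraries. SEMA6A rose by 0.29 ± 0.09 log2 in T4V and fell by 0.82 in S2A (difference 1.12 ± 0.12, adjusted p = 3.4e-05, edgeR). The rise in T4V depended on the TMM scaling. In the authors' deposited table SEMA6A stood at -0.17 log2 in T4V (adjusted p of 0.54, DESeq2) and at -1.35 in S2A. DHRS3, KMT5B, MAP2K6 and SEMA6A were the 4 genes called higher in every fit without 1 library and under all 10 other settings.

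Under TMM scaling, opposite changes in the other direction included HSPA5 and UVSSA, besides UTS2R. In the authors' deposited table HSPA5 stood at -0.71 log2 in T4V and -0.05 in S2A (adjusted p of 0.81 in S2A, DESeq2). UVSSA stood there at -0.74 and 0.31, and UTS2R at -1.30 and 0.80 (adjusted p of 0.15 and 0.14 in S2A, DESeq2). So none of these genes was called as risen in S2A there. HSPA5, the main chaperone of the endoplasmic reticulum (chr9:125234853-125241330), had 615 and 587 CPM in treated and 713 and 713 CPM in untreated T4V libraries. In S2A, HSPA5 had 767 and 783 CPM in treated and 564 and 555 CPM in untreated S2A libraries. HSPA5 fell by 0.25 log2 in T4V and rose by 0.47 ± 0.06 in S2A (difference -0.72 ± 0.09, adjusted p = 0.00012, edgeR; 0.54 with the authors' factors). It was the only call among 22 heat shock and chaperone genes, whose median difference was 0.09 (-0.03 without untreated T4V replicate 1). Of all genes tested, 0.540% were called lower in the difference. UVSSA, a factor of transcription-coupled repair, had 24.1 and 24.5 CPM in treated and 28.5 and 30.5 CPM in untreated T4V libraries. In S2A, UVSSA had 58.6 and 61.5 CPM in treated and 33.4 and 34.3 CPM in untreated S2A libraries (difference -1.11 ± 0.14, adjusted p = 0.00022, edgeR; 0.14 with the authors' factors).

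Smaller signalling groups held 1 or 2 calls, where 0.540% of all genes were called lower and 0.921% higher. ADM, a vasodilator peptide and target of hypoxia-inducible factor, had 16.6 and 18.2 CPM in treated and 23.9 and 19.2 CPM in untreated T4V libraries. In S2A, ADM had 23.6 and 21.6 CPM in treated and 9.33 and 8.22 CPM in untreated S2A libraries (difference -1.67 ± 0.23, adjusted p = 0.00037, edgeR). HK2, a hexokinase and hypoxia target, fell in T4V by 0.85 log2 and stood at 0.10 in S2A (difference -0.94 ± 0.15; adjusted p = 0.0016, edgeR, and 0.26 with the authors' factors); these were the 2 calls, both lower, among 23 hypoxia targets with a median difference of -0.10 (0.00 without untreated T4V replicate 1 and -0.15 without replicate 2). NRARP, a feedback inhibitor of Notch, and ID2, a BMP target and inhibitor of basic helix-loop-helix factors, were the 2 calls among 28 BMP and Notch genes (differences -1.35 ± 0.19 and -0.78 ± 0.10). The ID2 call was lost with the authors' factors (adjusted p = 0.53, edgeR) and with the 8 libraries alone (0.053), and the median of the 28 was -0.00, between -0.29 without treated S2A replicate 2 and 0.05 without untreated S2A replicate 1. CDKN2B, an inhibitor of CDK4 and CDK6, stood at 0.30 log2 in T4V (adjusted p = 0.072, edgeR) and rose in S2A (difference -0.94 ± 0.17, adjusted p = 0.0064, edgeR; 0.39 with the authors' factors).

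Replication-dependent histone genes, whose mRNAs normally end in a stem-loop and lack a poly(A) tail, rose in both lines. Of 32 tested of 64, 27 rose in T4V (median 2.03 log2) and 28 in S2A (median 1.96), and none fell in either. Most of the 32 averaged under 5 CPM over the 8 libraries, so these medians rest largely on low counts. Over all genes tested, 14.8% rose in T4V and 17% in S2A. The median difference of the histone genes was 0.28. That median was 0.03 without untreated T4V replicate 1, 0.11 without replicate 2 and 0.09 without untreated S2A replicate 1. In T4V minus S2A, 2 were called higher and none lower, against 0.921% and 0.540% of all genes. H2BC11, an H2B gene (chr6:27125897-27132750), had 11.8 and 11.3 CPM in treated and 2.54 and 2.25 CPM in untreated T4V libraries. In S2A, H2BC11 had 6.36 and 5.09 CPM in treated and 4.45 and 3.01 CPM in untreated S2A libraries (difference 1.64 ± 0.26, adjusted p = 0.0014, edgeR; 0.097 with the 8 libraries alone). H2AC6 had a difference of 0.88 ± 0.20 (adjusted p = 0.029, edgeR) that was kept in 1 of the 8 fits without 1 library, the one without treated T4V replicate 1 (adjusted p up to 0.26 in the others). A histone gene that passed only through its treated libraries had to rise, and near-identical copies make the split of reads uncertain. Of the 10 factors that form histone mRNA 3' ends, none was called.

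Small nucleolar RNA host genes and divergent transcripts named DT leaned lower in T4V minus S2A with few calls. Of 24 host genes, 13 fell and 1 rose in T4V (median -0.51 log2), where 14% of all genes fell and 14.8% rose. In S2A 8 fell and 3 rose (median 0.01), where 18.2% of all genes fell and 17% rose. The difference had a median of -0.35, 22 were below 0 (against 9249 of all 19982 genes) and none was called. Their median stayed between -0.34 and -0.42 without any 1 library, and GC correction gave -0.34. GC correction called 5 of them lower, but it also called 779 of all 19982 genes lower, against 108 in the main fit. Of 364 divergent transcripts, 4 were called lower and none higher, against 0.540% and 0.921% of all genes. Their median was -0.25, against 0.03 over all genes. The 4 calls became 1 or 2 in each fit without 1 library and 0 with the 8 libraries alone or the replicate block. In T4V 50 divergent transcripts rose and 41 fell, against 14.8% and 14% of all genes, and in S2A 103 rose and 28 fell, against 17% and 18.2%. The 30 SR and hnRNP splicing factors, 77 ribosomal protein genes, 42 nuclear-encoded respiratory chain genes, 35 DNA replication genes and 28 CDK12-sensitive DNA damage response genes gave no call. The median difference was 0.04 for the replication genes. It was 0.03 for the splicing factors (-0.05 without untreated T4V replicate 1 and 0.17 without replicate 2), -0.09 for the ribosomal protein genes (0.03 and -0.24), -0.01 for the respiratory chain genes (0.14 and -0.11) and 0.12 for the CDK12-sensitive genes (-0.01 and 0.24). Of 30 G2 and mitosis genes, 9 rose and 4 fell in T4V, 2 rose and 7 fell in S2A, and the median difference was 0.19 (0.10 without untreated T4V replicate 1 and 0.31 without replicate 2). Of all genes, 14.8% rose and 14% fell in T4V, and 17% rose and 18.2% fell in S2A. BUB3, a spindle checkpoint protein, was the only one called (0.55 log2, adjusted p = 0.017, edgeR; called in 1 of the 8 fits without 1 library, adjusted p up to 0.2). Of 13 mitochondrially encoded mRNAs, which are not made by RNA polymerase II, 11 rose in T4V and 12 in S2A, and none was called in the difference (median 0.10, but -0.01 without treated T4V replicate 1 and 0.16 without treated T4V replicate 2).

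The difference between the lines followed gene length. From the shortest to the longest of 5 equal bins of genes (0.0530 to 5.34 kb and 86.2 to 2305 kb), the median T4V minus S2A difference was -0.15, -0.08, 0.01, 0.11 and 0.20 log2. The fitted T4V change was nearly flat, at 0.05, -0.03, 0.02, 0.04 and 0.05, and the S2A change was 0.21, 0.00, -0.00, -0.07 and -0.16. Over the 4 library pairings the T4V median was 0.00 to 0.10 in the shortest and -0.00 to 0.13 in the longest bin. For S2A it was 0.11 to 0.19 and -0.17 to -0.12. The WT line stood at 0.12 in the shortest and -0.01 in the longest bin, and the degron line at 0.21 and -0.04. In the longest bin 94 genes (2.47%) were called higher and 13 (0.341%) lower, in the shortest 3 (0.0788%) and 31 (0.814%). In T4V 12.4% of the longest bin and 11% of the shortest were called as fallen, against 26.2% and 8.88% in S2A. Genes called higher had a median length of 89.5 kb, and 90 (48.9%) exceeded 100 kb; genes called lower had a median of 9.66 kb, and 54 (50.5%) were under 10 kb. Over all annotated genes tested, the median was 24.7 kb, 17.1% exceeded 100 kb and 29.9% were under 10 kb.

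The direction of the length trend held without either untreated T4V library and after GC correction, but its size changed. The shortest and longest bins stood at -0.08 and 0.09 without untreated T4V replicate 1, at -0.22 and 0.30 without replicate 2, and at -0.13 and 0.11 after GC correction. Length and GC content were linked (median GC 52.6% in the shortest and 44.6% in the longest bin). Among protein-coding genes, split into 3 classes of GC content, the low-GC class gave 0.02 in its shortest and 0.26 in its longest bin. The middle class gave -0.06 and 0.18, and the high-GC class -0.19 and 0.01. Treated T4V minus treated S2A was -0.25 in the shortest and 0.26 in the longest bin, and untreated T4V minus untreated S2A -0.04 and 0.06. Genes called higher were also more abundant than most, with a median untreated level of 35.4 CPM, against 8.17 CPM for genes called lower and 9.80 CPM for all. A same-strand gene ending within 10 kb upstream was found for 7.07% of the genes called higher, 15.9% of those called lower and 20.2% of all.

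**Figure D4:**
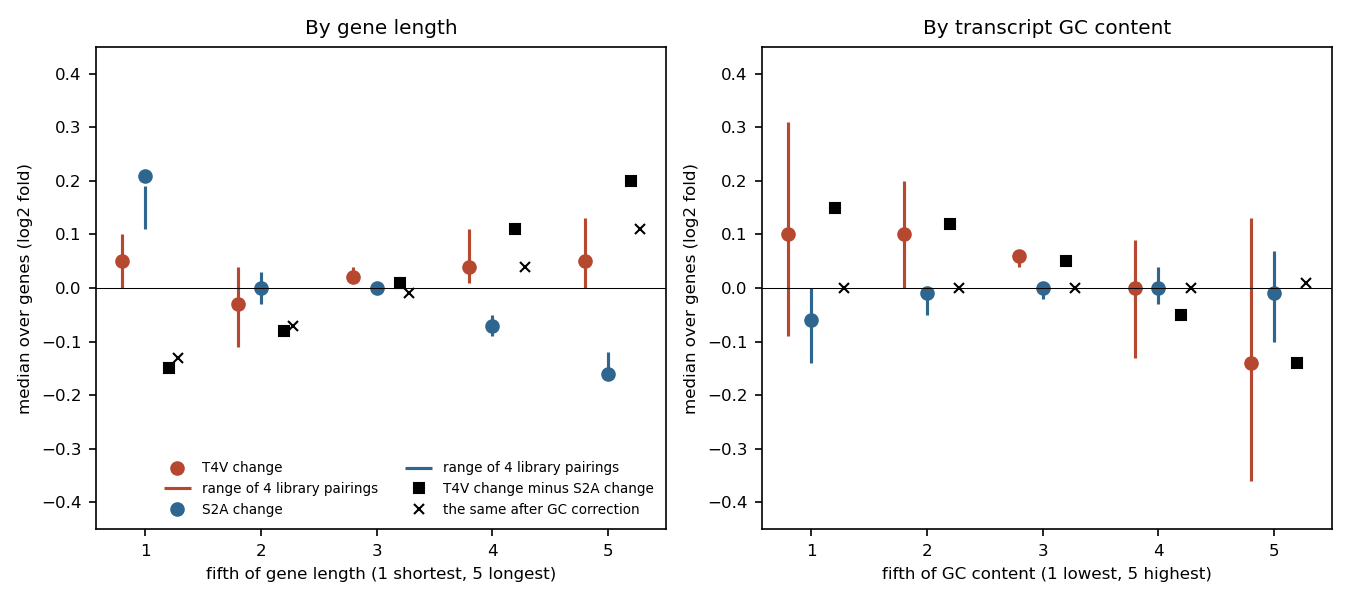
Median log2 fold over genes (y axis) by 5 equal bins of gene length (left) and transcript GC content (right): circles are the fitted T4V and S2A changes, bars the range of the same median over the 4 library pairings (log2 of CPM + 0.25), squares the difference and crosses the difference after GC correction. The difference climbs from -0.15 to 0.20 with length, and the T4V bars are widest at both ends of GC content.

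The WT and degron lines show the same genes with a WT complement and with none. In the line complemented with WT RPB1 and treated with the same 2 agents, 618 genes rose (3.09%) and 367 fell (1.84%). The 2 treated WT libraries stood apart from each other, with a chi-square per degree of freedom of 22.8 against 2.2 for untreated WT. There GADD45B, SGK1 and KLF4 were not called (0.58, 0.29 and 0.29 log2; adjusted p = 0.14, 0.2 and 0.4, edgeR) and FOSB rose by 0.88. HBEGF, SNAI1 and TENT5C rose in the WT line by 0.64, 0.94 and 0.69 log2, and HEXIM1 rose there as well. Each of these rises was smaller than in T4V or S2A. In the degron line, which has no complement and was given dTAGV-1 alone, GADD45B fell by 1.19 log2 and MYD88 rose by 3.32. SGK1 and KLF4 were not called there (0.10 and -0.12). HBEGF and HEXIM1 rose by 1.95 and 1.74 log2 in the degron line, against 1.65 and 1.71 in T4V and 4.10 and 2.86 in S2A. SNAI1 rose there by 1.44 log2, and FOSB and TENT5C rose as well, each by less than in T4V. KMT5B fell by 2.23 log2 in the degron line and by 0.84 in the WT line, and DHRS3 by 1.90 in the degron line and stood at 0.02 in the WT line. Over all genes tested, 14.8% rose and 14% fell in T4V, and 17% rose and 18.2% fell in S2A. Of 1642 genes that fell at least 2-fold in the degron line (8.22% of those tested), 827 fell in T4V and 990 in S2A. Their medians were -0.65 and -0.79 log2. In the difference 52 of the 1642 were called higher and 15 lower, against 0.921% and 0.540% of all genes. Without untreated T4V replicate 2 these were 58 and 17, in the other 7 fits without 1 library 10 to 21 were higher and 10 to 14 lower, and mitochondrial scaling gave 5 and 10, the authors' factors 2 and 7. Of 2453 that rose at least 2-fold there (12.3%), 1149 rose in T4V and 1439 in S2A, with medians of 1.30 and 1.48, and 5 were called higher and 30 lower (0 to 3 and 11 to 22 in the fits without 1 library, 0 and 14 with the authors' factors, 1 and 20 when scaled by mitochondrial mRNAs).

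In the authors' deposited table for each line, made with other scaling, most listed changes were decreases: 5148 of 5379 in T4V and 8385 of 9061 in S2A at an adjusted p under 0.05. In the authors' deposited table GADD45B stood at -0.41 log2 in T4V (adjusted p of 0.27) and at 2.19 in S2A, and SGK1 at 0.88 and 2.78. In the authors' deposited table KMT5B stood at -0.63 in T4V and -1.96 in S2A.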

How the data were processed

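Poly(A) RNA-seq was measured in 30 libraries of 15 groups, 2 per group, with 150 bp paired-end reads per the labels' protocols; the 8 T4V and S2A libraries held 10866089 to 15950073 counts. Per the submitters' processing notes, Trim Galore 0.6.2, STAR 2.7.3a, featureCounts 2.0.1, DESeq2 1.24.0 and the builds hg38 and dm6 were used. Which annotation, strand option and handling of multi-mapped reads the counting used is not given in the sources used here. Deposited tables give raw counts per gene for 61578 genes and TPM, which was used only as a check of the counts. The authors' deposited comparison tables give a base mean (a normalized count signal), a log2 fold change and p-values; the base means were solved for the authors' size factors. By those factors the treated total was 75.43% of the untreated one in T4V and 71.531% in S2A. No fly gene was analysed here, since the deposited tables used held no counts of the fly spike-in.

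The fit was made in edgeR 4.0.16, with the robust quasi-likelihood test, TMM scaling and 1 mean fitted for each group of the 30 libraries (15 residual degrees of freedom), after a filter on low counts (minimum count 10, total 15) that kept 19982 genes. Adjusted p-values are Benjamini-Hochberg over those genes, and a call is an adjusted p under 0.05. R was 4.3.3, limma 3.58.1, DESeq2 1.42.0, Python 3.11.15, pandas 2.3.3, numpy 2.4.6 and matplotlib 3.10.9. CPM values use the library totals multiplied by the TMM factors, and the 4 pairings of a treated with an untreated library use log2 of CPM + 0.25. Gene positions, lengths and GC content came from GENCODE 29, which matched 56659 of the IDs; promoters came from RefSeq (GRCh38.p14). On simulated data for the T4V minus S2A difference over 19768 genes, 68 of 100 genes with a 2-fold change and 99 of 100 with a 4-fold change were called in the right direction, with 3 false calls. The simulation gave every gene the same dispersion (0.0122) and changed only genes averaging 5 CPM or more. It held no shift between replicates along GC content, so its rates of right and false calls cannot be carried over to these libraries.

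The comparison and the gene lists were chosen with earlier results of these data known. Named genes were POLR2A, up to 15 each way with the largest called difference (mean of at least 5 CPM, no overlap between the 4 pairings of each line), up to 5 each way called in opposite directions in the lines, and up to 4 called members per list, or the 2 most abundant where none was called. One gene that meets this rule is not reported here. FOS, JUN, JUNB, EGR1, IER2, IER5, ATF3, TOB1 and KLF6 were named after their values were seen. Alternatives were other scalings (DESeq2 size factors, mitochondrial mRNAs, the authors' factors), the DESeq2 Wald test and other filters. Further ones were the 8 libraries alone, a replicate block, GC correction, both of these together, and each of the 8 libraries left out in turn. The authors' factors and the replicate block, alone or with GC correction, were fitted with the Mock libraries left out.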

Additional observations from a re-analysis of the deposited data

Results flagged for a closer look

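The T4V and S2A changes differed by the edgeR test of the difference itself for 184 genes called higher and 108 called lower in T4V minus S2A. Among the named genes called lower, the difference was -3.44 log2 for MYD88, -3.02 for GRIK5, -2.68 for GADD45B, -2.44 for HBEGF, -2.34 for PHLDA2, -2.34 for NPTX2, -2.28 for SNAI1, -2.27 for FOSB, -2.20 for UTS2R, -2.20 for IER3, -2.17 for WDR74, -2.03 for CRACR2B, -1.95 for SGK1, -1.92 for TENT5C and -1.88 for SHISA2. Smaller differences in that direction were -1.74 for KLF4, -1.67 for ADM, -1.35 for NRARP, -1.16 for HEXIM1, -1.11 for UVSSA, -1.10 for PLK2, -0.99 for INTS2, -0.94 for HK2, -0.94 for CDKN2B, -0.78 for ID2, -0.78 for MYC, -0.72 for HSPA5 and -0.72 for GOSR2.

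Among the named genes called higher, the difference was 1.85 log2 for DHRS3, 1.64 for H2BC11, 1.62 for SAMD5, 1.47 for FLI1, 1.43 for ROR1, 1.39 for EFNB3, 1.36 for SEMA6D, 1.31 for MAP2K6, 1.28 for KMT5B, 1.28 for ADAMTS9, 1.27 for EPB41L4B, 1.23 for TGFBR2, 1.21 for LINC00630, 1.18 for VAV3, 1.16 for WT1 and 1.12 for SEMA6A. Smaller ones were 0.97 for VLDLR, 0.88 for H2AC6, 0.79 for ZNF608, 0.77 for PCTP, 0.76 for CDK12, 0.68 for SUSD1, 0.60 for CTDSP2 and 0.55 for BUB3. Calls for SAMD5, FLI1, ROR1, EFNB3, SEMA6D, EPB41L4B, LINC00630, VAV3, WT1, ZNF608, PCTP, SUSD1, CTDSP2, H2AC6, VLDLR, BUB3, CRACR2B, GOSR2, INTS2, PLK2 and MYC were lost in at least 3 of the 8 fits without 1 library.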

How the results depend on the processing

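The 292 calls of the T4V minus S2A difference became 86 with mitochondrial scaling, 49 with the authors' factors, 194 without a filter, 36 with the 8 libraries alone, 1907 with GC correction and 1540 with GC correction and the replicate block; leaving out 1 library gave 88 to 291. Of the 1907, 1128 were higher and 779 lower, and 286 of the 292 were among them. Treated T4V set directly against treated S2A gave 6104 calls. The 5766 T4V calls became 10476 with mitochondrial scaling and 8986 with GC correction, and 3381 to 5545 without 1 library. The 7015 S2A calls became 10689 with mitochondrial scaling and 4865 to 7505 without 1 library. The 5032 calls between untreated T4V and untreated S2A became 8458 with GC correction and 3176 to 4739 without 1 library. The replicate block, fitted without the Mock libraries, gave 49 calls for the difference and 2515 between the untreated groups. Same-numbered libraries had correlations of -0.08 in T4V and 0.09 in S2A over 11654 genes. With a single such value per line, this cannot decide whether the numbers pair the samples. No called named gene changed direction under these settings. Mitochondrial scaling put the median of all genes at -0.54 log2 in T4V and -0.50 in S2A, and the authors' factors at -0.42 and -0.54. The cause of these shifts was not tested. With 2 libraries a group, a 2-fold difference was often missed on simulated data, and a gene without a call is not shown to respond alike in both lines.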
